A study of Homo sapiens with 4 samples.

Results

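The aminoacyl-tRNA synthetases of human hepatocellular carcinoma (HCC) cells were followed in 4 RNA-seq libraries, together with the 3 scaffold proteins that hold part of them in a complex. The genes were picked by symbol, as a family, and the rule uses no measured value, although the family was proposed with earlier results of these data known: 20 cytosolic synthetases (GARS and KARS also serve the mitochondria), AIMP1, AIMP2 and EEF1E1, and 16 mitochondrial synthetases, whose symbols end in 2. These 39 genes all had an entry under the older symbol among the 19225 entries of the table. HCC-LM3, an HCC line of high metastatic potential, and Huh-7, a human hepatoma line, had each received sh-WDR4-2, a lentiviral short hairpin RNA against WDR4, or sh-NC, a scrambled control hairpin. RNA was taken at 48 h by the labels, and each cell line and hairpin had 1 library, so that differences within a cell line have no replicate check. The study asked which genes move with WDR4 in these cells.

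Each synthetase joins an amino acid to its tRNA in a reaction driven by ATP, and the charged tRNA then carries the amino acid to the ribosome. The enzymes fall into class I and class II by the fold of their active site, and in the cytosol of animal cells several of them sit with AIMP1, AIMP2 and EEF1E1 in a multisynthetase complex. Mitochondria translate their own mRNAs with a mostly separate set of enzymes, all encoded in the nucleus. WDR4 is the partner of METTL1 in the enzyme that places N7-methylguanosine (m7G) on a group of tRNAs, the substrates of the synthetases. Many cytosolic synthetase genes are also known targets of ATF4, the transcription factor made when eIF2α is phosphorylated in the integrated stress response.

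WDR4 itself, the target of the hairpin, gave 1009 counts under the label sh-WDR4-2 and 1604 counts under sh-NC in HCC-LM3 cells, a log2 fold change of −0.22 after scaling for depth (95% counting interval −0.34 to −0.11). The Huh-7 libraries held 990 counts with sh-WDR4-2 and 1077 counts with sh-NC, a log2 fold change of −0.02 (−0.15 to 0.11). METTL1 was at −0.29 in both cell lines. As this transcript was little lower or not detectably lower, each library is called by its label. The labels also disagree among themselves, since that of the Huh-7 sh-WDR4-2 library speaks of an siRNA, and the extraction text of both Huh-7 libraries names retinas. None of 7 retina genes reached 1 FPKM, a count scaled for gene length and depth, in any library. Of 4 epithelial markers, the keratins KRT8 and KRT18 had at least 9751 counts in every library, CDH1 (E-cadherin) stayed under 1 FPKM in all 4, and EPCAM had 0 and 2 counts in HCC-LM3 cells, against 237 and 216 counts in Huh-7 cells. Of the entries named for 9 hepatocyte and hepatoma markers, 2 reached 1 FPKM in HCC-LM3 cells (APOA1 and APOB) and 3 in Huh-7 cells (these and HNF4A). AFP had 0 and 6 counts in HCC-LM3 cells and 2 and 0 counts in Huh-7 cells, with sh-WDR4-2 before sh-NC. SERPINA1, TF and FGB had at most 7 counts in any library. ALB and TTR, defining secreted proteins of the hepatocyte, were listed at 0 in all 4 libraries, and the entries named APOA1 and APOB had at least 2869 counts in each, but both symbols break the order of the table described below for SARS2. The APOA1 and APOB entries may thus hold other genes. HNF4A in Huh-7 cells was the single marker of the 9 that reached 1 FPKM under a symbol in order. HNF4A, a hepatocyte transcription factor, had 4 and 8 counts in HCC-LM3 cells, against 1980 and 2033 counts in Huh-7 cells, with sh-WDR4-2 before sh-NC. Total counts ran between 29807047 in the HCC-LM3 sh-WDR4-2 library, the lowest, and 40572251.

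The ATF4 element was looked for in the synthetase promoters, since the targets of ATF4 are described further on. RefSeq promoters (GRCh38.p14, 250 bases before to 50 after the start) were matched for 33 of the genes; those without an entry include AARS2, LARS, VARS, VARS2 and YARS. The letters searched were TGATGNAA on both strands (TTNCATCA on the other), the core of the C/EBP-ATF response element. Of all 35116 promoters of the same length, 3.62% held a match. Among the synthetases, 6 of 16 cytosolic promoters, 1 of 14 mitochondrial promoters and 0 of 3 scaffold promoters held it. The windows of 30 bases around the matches follow, read along the strand of the gene, with the matched bases in capitals.
AARS, chr16:70289675-70289704, minus strand: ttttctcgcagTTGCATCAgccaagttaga
CARS, chr11:3057407-3057436, minus strand: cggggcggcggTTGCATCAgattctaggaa
IARS, chr9:92293692-92293721, minus strand: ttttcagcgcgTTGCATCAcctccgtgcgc
MARS, chr12:57488053-57488082, plus strand: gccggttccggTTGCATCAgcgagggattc
NARS, chr18:57621804-57621833, minus strand: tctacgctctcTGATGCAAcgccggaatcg
TARS, chr5:33440956-33440985, plus strand: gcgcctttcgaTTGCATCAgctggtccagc
YARS2, chr12:32756076-32756105, minus strand: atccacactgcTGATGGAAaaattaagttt
The 6 cytosolic genes carried the same 8 letters, in 5 of them on the strand opposite to the gene and in NARS on its own strand. In CARS, IARS, MARS and TARS the match began within 13 bases of the annotated start. A match is a description of letters and not a bound site.

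The mitochondrial synthetases lay several-fold below the cytosolic ones in both cell lines. The median of the 20 cytosolic genes was 79.5 FPKM with sh-WDR4-2 and 81.8 FPKM with sh-NC in HCC-LM3 cells, and 62.1 FPKM with sh-WDR4-2 and 66.3 FPKM with sh-NC in Huh-7 cells. The median of the 16 mitochondrial genes, SARS2 as deposited included, was 16.5 and 16.8 FPKM in HCC-LM3 cells and 10.8 and 10.9 FPKM in Huh-7 cells, with sh-WDR4-2 before sh-NC. By counts, the cytosolic group took 0.494% of the HCC-LM3 sh-WDR4-2 library and 0.516% of the sh-NC library, while in Huh-7 cells it took 0.415% with sh-WDR4-2 and 0.417% with sh-NC. The mitochondrial group took 0.0969% and 0.0970% in HCC-LM3 cells and 0.0784% and 0.0783% in Huh-7 cells, in the same order.

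TARS, the threonine enzyme, had the highest mean over the 4 libraries at 151 FPKM, followed by GARS (glycine) at 129.8 FPKM and AARS (alanine) at 121 FPKM. These 3 enzymes all work outside the multisynthetase complex. Low cytosolic means were those of CARS (cysteine) at 33.0 FPKM and FARSB, the beta subunit of the phenylalanine enzyme, at 34.8 FPKM. FARSA, the alpha subunit of that enzyme, stood at 94.2 FPKM, although the working enzyme holds equal numbers of both subunits. Among the scaffold proteins, EEF1E1 and AIMP2 had similar means, 40.4 and 40.3 FPKM, and AIMP1 had 19.4 FPKM.

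IARS2, the isoleucine enzyme of the mitochondria, reached a mean of 84.9 FPKM, well above CARS2 at 52.2 FPKM and TARS2 at 25.4 FPKM. Its level exceeded that of 13 of the 20 cytosolic genes. The lowest mitochondrial means, SARS2 aside, were those of PARS2 (proline) at 4.60 FPKM, MARS2 (methionine) at 6.59 FPKM and FARS2 (phenylalanine) at 7.71 FPKM. Set side by side for the same amino acid, the cytosolic gene had the higher mean FPKM in 15 of 16 pairs, with a median ratio of 5.33 and a highest ratio of 20.9, for EPRS over PARS2. EPRS, which joins a glutamate and a proline enzyme in 1 protein, enters 2 of these pairs, and FARS2 is set against both subunits of its counterpart. CARS and CARS2 were the exception, at a ratio of 0.631. IARS and IARS2 were nearly level, at 1.06.

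**Figure D1:**
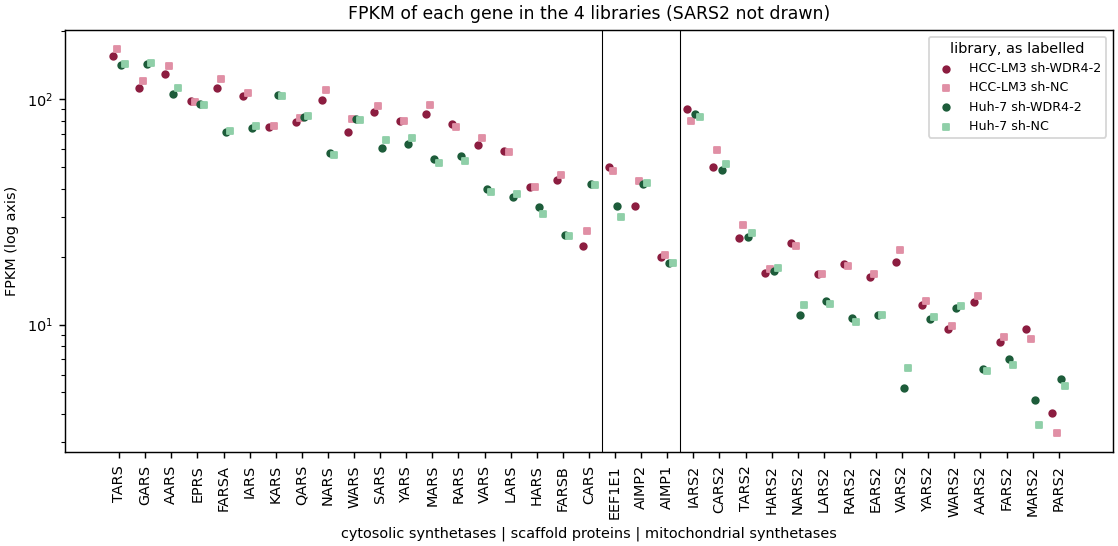
FPKM on a log axis (vertical) of the reported genes in the 4 libraries, in order of mean FPKM within the cytosolic, scaffold and mitochondrial groups; each point is 1 library, circles for sh-WDR4-2 and squares for sh-NC. The cytosolic genes drawn lie between 22.3 and 166 FPKM, and most mitochondrial genes lie below 30 FPKM, apart from IARS2 and CARS2.

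SARS2, the mitochondrial serine enzyme, had 4 and 0 counts in HCC-LM3 cells and 0 and 1 counts in Huh-7 cells, with sh-WDR4-2 before sh-NC. The symbols of the table stand in the order of a computer dictionary for 18994 of the 19225 entries, and SARS2 is the single one of these 39 genes out of that order. Its place points to the entry named FUT3, and that of FUT3 points back. Under FUT3 the table gives 1032 and 1421 counts for HCC-LM3 cells and 900 and 1032 counts for Huh-7 cells, and the gene length of 2062 bases was 5 bases from an annotated SARS2 transcript and 40 bases from the nearest of FUT3. The 2 symbols therefore appear exchanged in the table. SARS2 is left out of the fold changes below because its mean was under 1 CPM, a count scaled for depth alone, and the values of the other entry are given where they matter.

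In HCC-LM3 cells the label sh-WDR4-2 went with slightly lower levels of the cytosolic synthetases than the label sh-NC, by a median log2 fold change of −0.09, and no member passed 2-fold. Over all 12683 genes measured in these cells the median was −0.003, and 0.26% passed 2-fold. Of the 20 cytosolic genes, 16 were lower, against 51.1% of all genes. The counting interval, which covers counting error of the 2 libraries and nothing else, lay below 0 for 13 of the 20 and above 0 for 1, against 21.5% and 20.6% of all genes. It narrows as counts rise, so that leaving out 0 depends on level as well as on change. IARS at −0.05 (14181 and 19947 counts) lay below 0, while FARS2 at −0.08 (467 and 672 counts) did not. The shares with an interval away from 0, here and below, were not matched for level. Among the 15 mitochondrial genes measured, 10 were lower, with a median of −0.05, and the interval lay below 0 for 3 and above 0 for 3. The cytosolic median was thus 0.04 below the mitochondrial one on the log2 scale, with no test of this difference. The sh-WDR4-2 library of these cells was the shallowest and carries the mark L4 in its description where the other 3 carry L3, and these features and the hairpin cannot be told apart.

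By place in the cell, the cytosolic enzymes outside the multisynthetase complex had the lower median in HCC-LM3 cells, −0.09. Of these 12, 10 had the interval below 0 and 0 above it, against 21.5% and 20.6% of all genes. The remaining ones, YARS at −0.004 and HARS at −0.0004, were level within counting error. Of the 8 synthetases inside the complex, 4 were lower and 4 higher, 3 with the interval below 0 (MARS, IARS and QARS) and 1 above, and their median was 0.003. The values of the 12 ranged between −0.21 and −0.0004, and the lowest of the 8 was −0.13, so that the groups overlap. The genes named for this division were chosen after their values were seen, and the division carries no test.

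CARS, the cysteine enzyme, was the lowest cytosolic gene, at 55.2 CPM with sh-WDR4-2 and 64.2 CPM with sh-NC in HCC-LM3 cells, a log2 fold change of −0.21 (−0.30 to −0.13). WARS, the tryptophan enzyme, known as an interferon-induced gene, had 179.7 CPM with sh-WDR4-2 and 204 CPM with sh-NC, a log2 fold change of −0.18 (−0.23 to −0.13). NARS, the asparagine enzyme, had 264 CPM against 292 CPM, a log2 fold change of −0.15 (−0.19 to −0.11). As folds these are 0.862, 0.882 and 0.902, small beside the spread of levels between genes. WARS shares 211 exonic bases with WDR25 on the other strand, and strand use in the counting is not given in the sources used here.

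RARS (arginine) and LARS (leucine), both of the complex, were at 0.04 (−0.01 to 0.10) and 0.03 (−0.01 to 0.07) in HCC-LM3 cells, with 0 inside the interval. EPRS was at 0.01 (−0.02 to 0.04) and KARS at −0.01 (−0.06 to 0.05), so that these 4 enzymes were level within counting error.

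AIMP2, a scaffold protein of the complex that also binds several regulators of growth, had the lowest fold change of all 38 genes in HCC-LM3 cells. It was at 35.9 CPM with sh-WDR4-2 and 46.5 CPM with sh-NC, a log2 fold change of −0.37 (−0.48 to −0.27), against 51.8 CPM with sh-WDR4-2 and 52.5 CPM with sh-NC in Huh-7 cells, a log2 fold change of −0.02 (−0.11 to 0.08). The HCC-LM3 sh-WDR4-2 library thus stood apart from the other 3. AIMP2 (chromosome 7, 6009245 to 6023834, plus strand) shares 532 exonic bases with EIF2AK1, an eIF2α kinase on the other strand, whose log2 fold change in HCC-LM3 cells was 0.001 (−0.04 to 0.04). AIMP1 was at −0.04 (−0.13 to 0.06) in HCC-LM3 cells and at −0.004 (−0.09 to 0.09) in Huh-7 cells. EEF1E1, also known as AIMP3, was at 0.06 (−0.04 to 0.17) and 0.16 (0.03 to 0.29) in these lines.

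**Figure D2:**
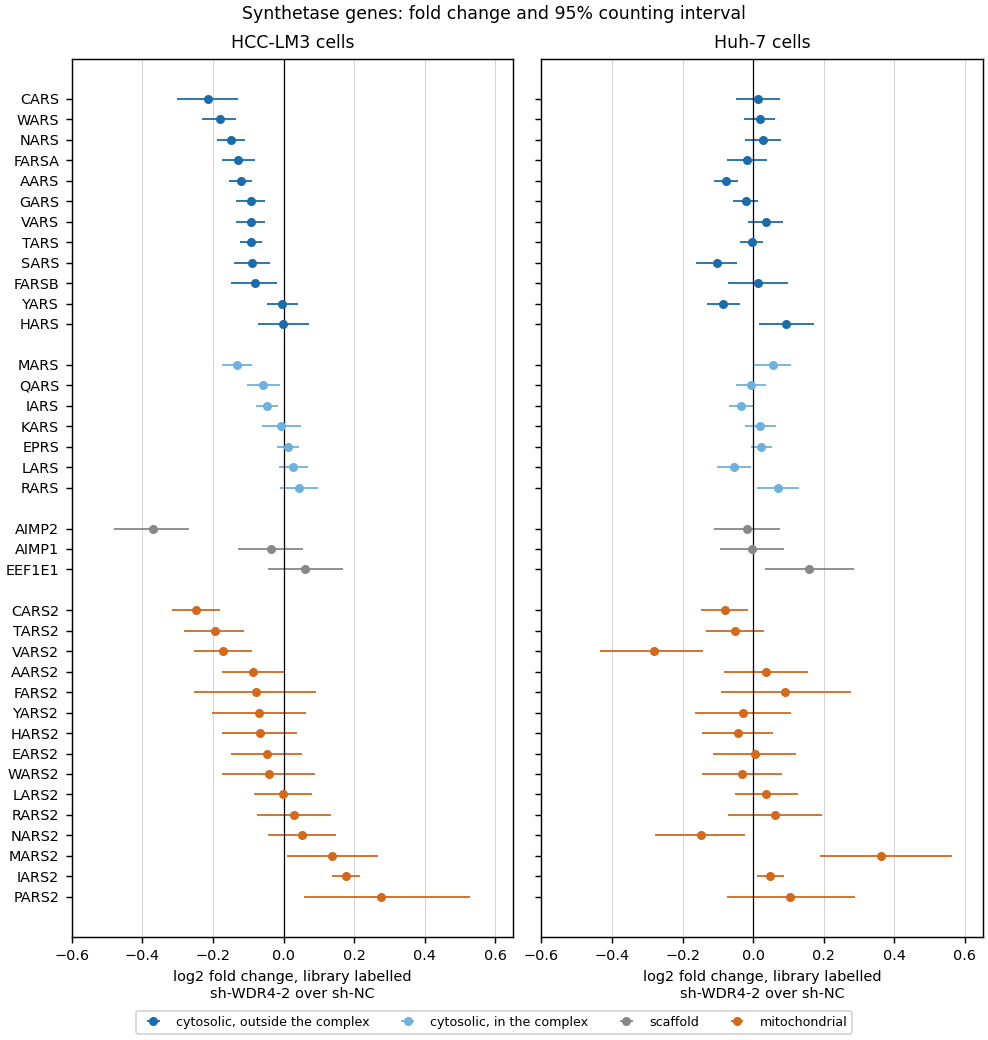
Log2 fold change (horizontal) of the reported genes in HCC-LM3 cells (left) and Huh-7 cells (right), library labelled sh-WDR4-2 over that labelled sh-NC; bars are 95% counting intervals and cover counting error only. In HCC-LM3 cells the bars of 10 of the 12 cytosolic enzymes outside the complex lie below 0, against 21.5% of all genes. In Huh-7 cells those of 3 do, against 15.1% of all genes.

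The mitochondrial synthetases of HCC-LM3 cells lay on both sides of 0. CARS2 had 88.7 CPM with sh-WDR4-2 and 105 CPM with sh-NC, a log2 fold change of −0.25 (−0.32 to −0.18). TARS2 was at −0.19 (−0.28 to −0.11) and VARS2 at −0.17 (−0.25 to −0.09). PARS2, with 287 and 319 counts the member of fewest counts after SARS2, was at 0.28 (0.06 to 0.53). IARS2 had 300.5 CPM with sh-WDR4-2 and 266 CPM with sh-NC, a log2 fold change of 0.18 (0.14 to 0.22), and MARS2 was at 0.14 (0.01 to 0.27). The entry named FUT3, to which SARS2 points, was at −0.02 (−0.13 to 0.10).

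In Huh-7 cells neither group leaned to one side, and again no member passed 2-fold, where 0.109% of 11971 genes did. The cytosolic genes were higher in 11 and lower in 9 cases (median log2 fold change 0.01), and the mitochondrial genes were higher in 8 and lower in 7, with a median of 0.005. The median over all genes was −0.002, and 51% of all genes were below 0. The interval lay above 0 for 3 cytosolic and 2 mitochondrial genes and below 0 for 4 and 3, against 15% and 15.1% of all genes. Of the 12 enzymes outside the complex, 6 were higher and 6 lower.

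The lowest cytosolic values in Huh-7 cells were those of SARS (serine) at −0.10 (−0.16 to −0.04), YARS (tyrosine) at −0.08 (−0.13 to −0.04) and AARS (alanine) at −0.08 (−0.11 to −0.04). HARS (histidine) was the highest at 0.09 (0.02 to 0.17), with 76.5 CPM in the sh-WDR4-2 library and 71.7 CPM in the sh-NC library. It was followed by RARS at 0.07 (0.01 to 0.13) and MARS (methionine) at 0.055 (0.003 to 0.11). HARS and HARS2 start head to head and share 331 exonic bases on opposite strands, and HARS2 was at −0.04 (−0.14 to 0.06).

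The highest and the lowest value of all 38 genes in Huh-7 cells were mitochondrial. MARS2 had 15.3 CPM with sh-WDR4-2 and 11.8 CPM with sh-NC, a log2 fold change of 0.36 (0.19 to 0.56), and VARS2 had 19.8 CPM with sh-WDR4-2 and 24.2 CPM with sh-NC, a log2 fold change of −0.28 (−0.43 to −0.14). NARS2 was at −0.15 (−0.28 to −0.02), CARS2 at −0.08 (−0.15 to −0.01), PARS2 at 0.10 (−0.07 to 0.29) and FARS2 at 0.09 (−0.09 to 0.28). The counts behind MARS2 were 522 and 432, so that its interval is among the widest. The FUT3 entry was at −0.09 (−0.23 to 0.03).

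Both cell lines together gave 16 of 38 members lower in each, 8 higher in each and 14 of opposite sign. Over all genes 27.9% were lower in each, 24.1% higher in each and 48% of opposite sign. The interval lay below 0 in both cell lines for 4 members, against 4.35% of all genes, and above 0 in both for 2, against 3.89%. The 4 were AARS and SARS, which charge alanine and serine tRNAs in the cytosol, and CARS2 and VARS2 of the mitochondria. AARS had 401 CPM with sh-WDR4-2 and 437 CPM with sh-NC in HCC-LM3 cells (−0.12, −0.15 to −0.09) and 378 and 398 CPM in Huh-7 cells. SARS was at −0.09 (−0.14 to −0.04) in HCC-LM3 cells. The 2 members above 0 in both were IARS2 and MARS2, of the mitochondria, and IARS2 was at 0.05 (0.01 to 0.09) in Huh-7 cells.

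Across the 38 members, values in HCC-LM3 and Huh-7 cells were related by a Pearson r of 0.41 (Spearman rho 0.40), and across all 11537 genes measured in both by an r of 0.05 (rho 0.06). Among the 20 cytosolic genes r was 0.08 (rho 0.03) and among the 15 mitochondrial genes 0.57 (rho 0.59). The value over all genes takes in genes down to a mean of 1 CPM, where counting error is larger, and was not matched for level. The correlations are descriptions over genes, which share their 4 libraries and are not independent replicates.

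**Figure D3:**
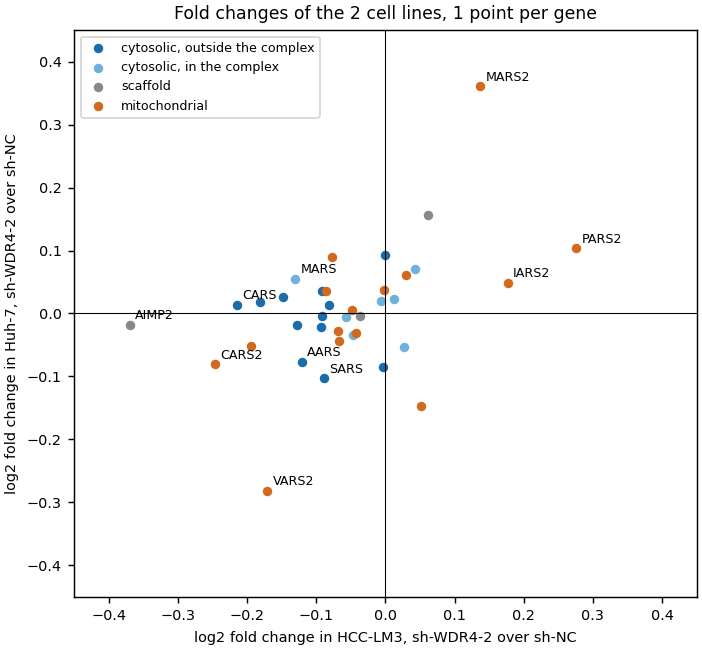
Log2 fold change in Huh-7 cells (vertical) against that in HCC-LM3 cells (horizontal), library labelled sh-WDR4-2 over sh-NC, 1 point per reported gene. The mitochondrial genes MARS2 (0.14, 0.36) and VARS2 (−0.17, −0.28) lie farthest out along the diagonal, and AIMP2 lies near the horizontal axis.

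With the 2 cell lines as replicates of the hairpin, edgeR's quasi-likelihood test with Benjamini-Hochberg adjustment called 0 of the 38 members, where it called 0.0158% of 12693 genes. DESeq2 also called 0. At an unadjusted p under 0.05 edgeR had 6 members and DESeq2 0. Over all genes edgeR had 5.11% at that level and DESeq2 146 of 12693. Of the 6, 4 were lower (VARS2, CARS2, AARS and AIMP2), against 371 of the 12693 genes (2.92%). MARS2 and IARS2 were higher, against 277 of the 12693 genes. VARS2 had the smallest adjusted p of the members in the edgeR test, 0.870, at a log2 fold change of −0.22 (SE 0.08), lower in 2 of 2 cell lines. The fit has 1 residual degree of freedom, and its p-values measure only the spread between these 4 libraries.

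The synthetases spanned a wider range between the cell lines, with log2 fold changes of −0.99 to 1.59, than between the hairpins within a line (−0.37 to 0.36). In the edgeR quasi-likelihood test of HCC-LM3 over Huh-7, with the 2 libraries of a cell line as its replicates, 1 of 38 members passed an adjusted p of 0.05 and 2-fold, where 27.1% of all genes did. By adjusted p alone 30 members differed, against 77.4% of all genes, 19 of them higher and 11 lower in HCC-LM3 cells, against 38.8% and 38.6% of all genes. The median over the members was 0.14 and over all genes 0.004.

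The member that passed was VARS2, the mitochondrial valine enzyme (chromosome 6, 30908242 to 30926459, plus strand). It had 62.4 and 70.3 CPM in the HCC-LM3 libraries labelled sh-WDR4-2 and sh-NC, against 19.8 and 24.2 CPM in the Huh-7 libraries in the same order. The log2 fold change was 1.59 (SE 0.10, adjusted p = 9.9e-08, edgeR quasi-likelihood test with Benjamini-Hochberg adjustment). VARS2 shares 445 exonic bases with GTF2H4 on the same strand, whose log2 fold change in that test was 0.53 (SE 0.08). Its cytosolic counterpart VARS was at 0.52 (SE 0.05).

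Other mitochondrial genes higher in HCC-LM3 cells were MARS2 at 0.95 (SE 0.13), AARS2 at 0.84 (SE 0.07) and NARS2 at 0.77 (SE 0.08), and the highest cytosolic ones were NARS at 0.67 (SE 0.06) and FARSB at 0.66 (SE 0.06). CARS was lowest in HCC-LM3 cells relative to Huh-7 cells, with 55.2 and 64.2 CPM against 119 and 118 CPM, a log2 fold change of −0.99 (SE 0.07). PARS2 was at −0.80 (SE 0.14), KARS (lysine) at −0.66 (SE 0.05), GARS at −0.51 (SE 0.05) and WARS2 (tryptophan) at −0.50 (SE 0.08). All of these had an adjusted p of at most 0.00026 in the edgeR test. GARS and KARS, the 2 genes that serve both compartments, were both lower in HCC-LM3 cells. Both subunits of the phenylalanine enzyme were higher (FARSA 0.51, SE 0.06). By adjusted p alone, 6 of the 20 cytosolic genes were lower and 11 higher, against 38.6% and 38.8% of all genes. The count of members past both thresholds was 3 (CARS, MARS2 and VARS2) without the HCC-LM3 sh-NC library and 2 (MARS2 and VARS2) without the Huh-7 sh-WDR4-2 library.

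**Figure D4:**
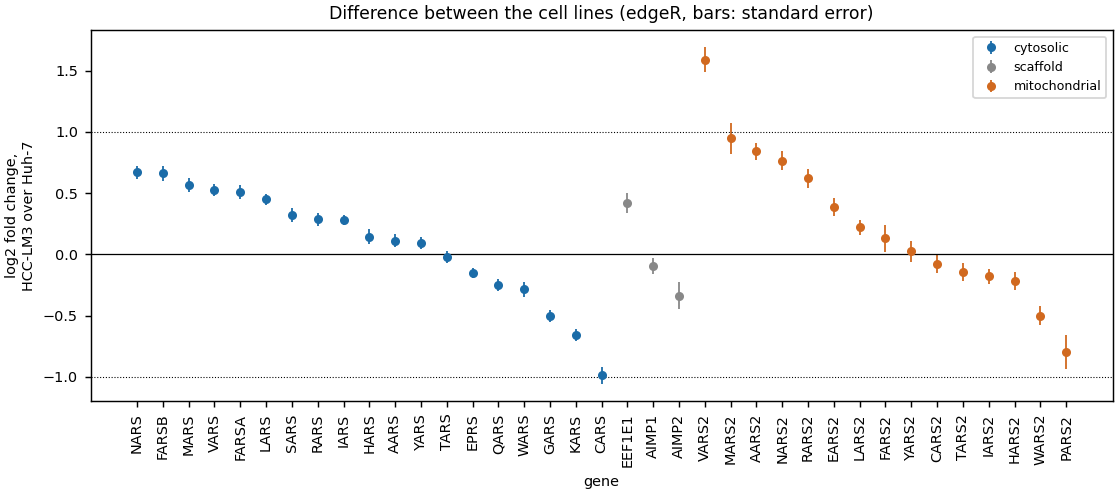
Log2 fold change of HCC-LM3 over Huh-7 cells (vertical) for the reported genes by group, from edgeR over 2 libraries per cell line; bars are standard errors and dotted lines mark 2-fold. VARS2 at 1.59 is the single gene beyond the dotted lines, and CARS at −0.99 lies next to the lower one.

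The integrated stress response was followed through 26 genes of ATF4 and its known targets, a list apart from the synthetases. In HCC-LM3 cells 17 of the 25 measured were lower and 8 higher, and the median log2 fold change was −0.09. The interval lay below 0 for 16 and above 0 for 7, against 21.5% and 20.6% of all genes, and 51.1% of all genes were lower. ATF4 itself had 422 CPM with sh-WDR4-2 and 442 CPM with sh-NC (−0.07, −0.10 to −0.03). CHAC1, a glutathione-degrading enzyme, had 5.51 CPM against 10.3 CPM (−0.84, −1.16 to −0.64), and SLC7A11, the cystine importer, 102 CPM against 133 CPM (−0.39, −0.45 to −0.32). DDIT3 (CHOP) was at −0.18 (−0.34 to −0.04), TRIB3 at −0.13 (−0.21 to −0.05) and ASNS, asparagine synthetase, at −0.06 (−0.11 to −0.002). Other members of the list ran the opposite way, such as VLDLR at 0.73 (0.62 to 0.87), ATF3 at 0.57 (0.43 to 0.74) and STC2 at 0.47 (0.40 to 0.54).

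In Huh-7 cells 14 genes of that list were lower and 11 higher, where 51% of all genes were lower, and the median was −0.01. The interval lay below 0 for 6 and above 0 for 2, against 15.1% and 15% of all genes. ATF4 was at −0.10 (−0.13 to −0.06), ASNS at −0.16 (−0.23 to −0.09) and DDIT3 at −0.16 (−0.40 to 0.07), whereas TRIB3 was at 0.05 (−0.01 to 0.11) and CHAC1 at 0.07 (−0.15 to 0.29). Of the 25 genes measured, edgeR's quasi-likelihood test of both cell lines called 0. EIF4EBP1, the remaining gene, was listed at 0 in all libraries, and its symbol too breaks the order described for SARS2.

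The 6 cytosolic genes whose promoter windows are printed above, AARS, CARS, IARS, MARS, NARS and TARS, were all lower in HCC-LM3 cells with the interval below 0, at a median log2 fold change of −0.13. The interval lay below 0 there for 13 of the 20 cytosolic genes and for 21.5% of all genes. AARS, CARS, NARS and TARS are also outside the multisynthetase complex, so that the 2 divisions overlap. The 10 cytosolic genes with a promoter entry and no match were lower in 8 cases, 6 with the interval below 0, at a median of −0.07. In Huh-7 cells 3 of the 6 were lower and 3 higher, with a median of 0.005, and the 10 had a median of 0.02. The ranges of both sets overlap in each cell line (−0.21 to −0.05 and −0.18 to 0.04 in HCC-LM3 cells), and this division was made with the fold changes known, so that it carries no test.

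HCC-LM3 cells also differed between the 2 labels in genes of hypoxia and glycolysis. All 18 genes of that list were higher with sh-WDR4-2, against 48.9% of all genes, at a median log2 fold change of 0.70. Of them 6 passed 2-fold, against 0.26% of all genes. In Huh-7 cells 13 of 18 were higher, against 49% of all genes, with a median of 0.08. The list was chosen with earlier results of these data known, so that its common direction carries no test. The part of this difference in the values of the synthetases was not tested.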

How the data were processed

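Human mRNA libraries (VAHTS kit by the study's methods, TruSeq by the labels) were sequenced on an Illumina NovaSeq. The authors deposited raw counts and FPKM per gene symbol in 1 table. Bowtie 0.12.2 and 2 builds of the mouse genome, mm8 and mm9, stand in the submitters' processing notes; counter and human build: not given in the sources used here. Deposited FPKM are counts per gene length and library total, with whole lengths within 0.01 bases for all 60121 values tested.

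Counts were scaled by TMM in edgeR 4.0.16 (R 4.3.3). Genes averaging 1 CPM or more over the 2 libraries of a line were compared as log2(CPM + 0.5), which understates changes of low genes, with a 2-fold threshold, exact conditional binomial intervals (95%) and no p-value. The intervals were taken from the counts without the added 0.5, so that for low genes the printed value lies off the middle of its interval. The replicates of the edgeR robust quasi-likelihood test of the hairpin were the cell lines (line as block), and those of the test between cell lines the 2 libraries of each; nothing says that these came from separate cultures. DESeq2 1.42.0 was the alternative. A count of 0 allows up to 3 counts, 0.0739 to 0.101 CPM by library. Scripts ran in Python 3.11.15 and were tested on simulated data.

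The members, lists and tests were chosen with earlier results of these data known. Named were members past a threshold or with intervals away from 0 in both cell lines, the 3 highest and lowest per group for fold change and for mean FPKM, the 5 largest each way between cell lines, the scaffold proteins, and few genes per list; those named for their promoter or for the division by complex, and the genes that overlap a member, were chosen after their values were seen. By GENCODE release 29, 13 members share exonic bases with another gene of the table and 13 have annotated pseudogenes, so that their counts are less certain. Alternatives were other size factors, pseudocounts of 0.1 and 1, a minimum mean of 10 CPM or none, a fold threshold of 1.5, other fits and single libraries left out. Some genes that the rule names are not reported here, though group counts and medians hold every member.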

Additional observations from a re-analysis of the deposited data

Results flagged for a closer look

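MARS, the cytosolic methionine enzyme, was the single member whose counting interval left out 0 in opposite directions in the 2 cell lines. Its log2 fold change was −0.13 (−0.17 to −0.09) in HCC-LM3 cells, with 234 CPM in the library labelled sh-WDR4-2 and 256 CPM in that labelled sh-NC. It was 0.055 (0.003 to 0.11) in Huh-7 cells, with 169 and 162 CPM in the same order. Over all genes the interval lay below 0 for 21.5% in HCC-LM3 cells and above 0 for 15% in Huh-7 cells. The share of all genes with both was not counted, so MARS is not shown to be unusual. This contrast of the 2 lines was not tested, since each has 1 library per hairpin. MARS shares 287 exonic bases with DDIT3 on the other strand, and DDIT3 was at −0.18 in HCC-LM3 cells and −0.16 in Huh-7 cells.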

How the results depend on the processing

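The counts of 0 members past 2-fold and of 0 called for the hairpin stayed at 0 under other size factors, other pseudocounts, no filter, a mean of 10 CPM and a 1.5-fold threshold, each where it applies, and with DESeq2. Over these the cytosolic median was −0.08 to −0.09 in HCC-LM3 cells and 0.01 in Huh-7 cells, also with the scaffold proteins or without GARS and KARS, and the mitochondrial median in HCC-LM3 cells was −0.05 to −0.06. The mitochondrial median in Huh-7 cells, 0.005, was −0.01 with no filter or with SARS2 read from the entry named FUT3, an alternative chosen after seeing the data, so it has no direction. With no replicate block for the line, the hairpin test called 0 members too. Over all genes that test called 2, against 11 with no filter and 0 with no block. Between the cell lines the count of 1 member was 30 by adjusted p alone, and between 1 and 3 with each library left out in turn, where a lone library is assumed to vary like the others. Leaving out a library gives no value within a cell line, and none for the hairpin test, which would keep no residual degrees of freedom. With 1 library per cell line and hairpin, differences of the size seen here, mostly under 0.3 on the log2 scale, cannot be told apart from those between cultures or libraries.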

Other observations

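The 13 measured partners of tRNA charging outside the 39 genes include tRNA editing, export and maturation factors and TARSL2, a further threonyl-tRNA synthetase. With sh-WDR4-2, 9 were lower and 4 higher than with sh-NC in HCC-LM3 cells (median log2 fold change −0.01), where 51.1% of all genes were lower. Their interval lay below 0 for 2 and above 0 for 2, against 21.5% and 20.6% of all genes. In Huh-7 cells 10 were lower and 3 higher, with a median of −0.03, where 51% of all genes were lower. The interval left out 0 for 0 of the 13 there, against 15.1% of all genes below 0 and 15% above. The 10 translation factors of the mitochondria had medians of −0.02 in HCC-LM3 cells and 0.01 in Huh-7 cells, and their interval left out 0 for 1 gene (GFM1, −0.08) in HCC-LM3 cells and for 0 in Huh-7 cells. Of the 8 eIF2α kinases and partners, EIF2AK3 (PERK), a kinase of the endoplasmic reticulum, was the lowest in HCC-LM3 cells at −0.18 (−0.28 to −0.09).

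EEF1A2, a form of elongation factor 1 alpha known from muscle and neurons and from some tumours, had 764 and 836 counts in HCC-LM3 cells, against 44166 and 47143 counts in Huh-7 cells, with sh-WDR4-2 before sh-NC. The log2 fold change of HCC-LM3 over Huh-7 was −5.91 (adjusted p = 2.9e-10, edgeR quasi-likelihood test). EEF1B2 of the same list was at −0.08 (adjusted p = 0.11 in that edgeR test). The other measured factors of the list were lower in HCC-LM3 cells, as were 38.6% of all genes in that test. EEF1D was at −0.89, EEF2 at −0.55 and EEF1G at −0.50 (adjusted p = 1.1e-08, 2.0e-07 and 1.1e-06 in the same edgeR test). EEF1A1, the common form, also breaks the symbol order described for SARS2, and its entry held 1 to 5 counts per library.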
